A study of Mus musculus with 6 samples.

Results

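The nucleoporins and nuclear transport receptors are the genes whose symbols begin with Nup, Kpna, Kpnb, Ipo or Xpo followed by a number, together with Xpot. The rule found 40 such members among the 17457 genes of the table, 21 that encode pore proteins and 19 that encode importins and exportins. Their transcripts were measured by RNA sequencing in 6 libraries of wild type female C57BL/6J mice, aged 10 weeks. In 2 libraries the cells were primary MSCs, sorted as CD45-Ter119-CD31-Sca-1+PDGFRα+ cells directly after collagenase IV digestion of the long bones. In the other 4 they were cultured MSCs, for which the mixed bone digest was grown in MesenCult medium for 10 days, with a single passage, and the same gate was applied only afterwards. Each library was made from more than one mouse, and the marrow had been flushed out and discarded. Because the sort came after culture, a change within cells and a change in which cells were present cannot be told apart, and neither can fewer cells of a type and less RNA per cell.

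The nuclear pore complex is the channel through the nuclear envelope. It is built from nucleoporins that are arranged as outer rings of Y-shaped complexes, an inner ring, a central channel lined with flexible FG repeats, filaments on the cytoplasmic side and a basket on the nuclear side. Importins carry proteins into the nucleus and exportins carry proteins and RNAs out, and the small GTPase Ran, bound to GTP in the nucleus and to GDP in the cytoplasm, gives this traffic its direction. In animal cells the pore is taken apart at mitosis and rebuilt afterwards, and new pores are also inserted during interphase.

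Expression is given as FPKM, fragment numbers divided by transcript length and by the mapped fragments of the library, which allows levels of different genes to be set side by side. A gene was tested where at least 2 libraries had at least 1 FPKM, which held for 11405 genes and for 37 of the 40 members, 18 pore proteins and all 19 importins and exportins. Fold changes are log2 differences of FPKM + 0.1, cultured over primary MSCs, from limma with the SE in parentheses, and the words rose and fell are kept for genes whose Benjamini-Hochberg adjusted p, over all genes tested, was under 0.05. This scale understates the change of weakly expressed genes. FPKM summed to between 612104 and 642497 in the cultured and to 571471 and 559601 in the primary libraries, and the reads behind a single value are unknown. Of the sort markers, Ly6a, which encodes Sca-1, was high in both groups (1384 and 1161 FPKM on average, log2 fold change -0.21, adjusted p = 0.313 from limma, and called lower with median ratio scaling at -0.65), Pdgfra fell by 0.82 on the log2 scale, and Ptprc and Pecam1 were at 0.62 FPKM or less in every library.

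Promoter sequences are shown for 4 members on which the results turn, the 250 bases before the annotated start, from RefSeq on GRCm38.p6 and written 5′ to 3′ on the strand of the gene. Kpna2 (chr11:106999526-106999775, minus strand) encodes the importin alpha with the highest fold change of all members, Nup37 (chr10:88146742-88146991, plus strand) and Nup107 (chr10:117792706-117792955, minus strand) encode Y complex subunits, and Kpnb1 (chr11:97187893-97188142, minus strand) encodes importin beta 1. Capitals mark matches, on either strand, to 6 short motifs. The CHR of cell cycle promoters was searched as TTTGAA and the CCAAT box as its 5 letters. The E-box was searched as CACGTG and the core of E2F sites as GCGGGAA. The core of ETS sites was searched as CCGGAAG and that of NRF1 sites as GCGCATG.
Kpna2: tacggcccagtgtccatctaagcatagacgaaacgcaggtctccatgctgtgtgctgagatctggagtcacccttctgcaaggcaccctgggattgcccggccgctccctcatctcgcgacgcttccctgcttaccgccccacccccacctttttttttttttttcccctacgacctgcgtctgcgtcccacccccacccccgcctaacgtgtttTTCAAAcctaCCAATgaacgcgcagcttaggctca
Nup37: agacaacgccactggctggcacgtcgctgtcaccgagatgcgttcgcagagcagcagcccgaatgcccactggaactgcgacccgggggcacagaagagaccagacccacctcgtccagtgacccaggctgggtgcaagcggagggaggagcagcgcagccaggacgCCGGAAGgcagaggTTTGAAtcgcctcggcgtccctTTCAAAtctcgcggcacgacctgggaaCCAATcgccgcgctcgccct
Nup107: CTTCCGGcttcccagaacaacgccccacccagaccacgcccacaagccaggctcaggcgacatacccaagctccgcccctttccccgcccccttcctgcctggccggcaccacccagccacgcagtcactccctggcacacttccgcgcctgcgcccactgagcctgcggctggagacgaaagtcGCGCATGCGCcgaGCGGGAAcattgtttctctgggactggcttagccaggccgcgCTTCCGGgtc
Kpnb1: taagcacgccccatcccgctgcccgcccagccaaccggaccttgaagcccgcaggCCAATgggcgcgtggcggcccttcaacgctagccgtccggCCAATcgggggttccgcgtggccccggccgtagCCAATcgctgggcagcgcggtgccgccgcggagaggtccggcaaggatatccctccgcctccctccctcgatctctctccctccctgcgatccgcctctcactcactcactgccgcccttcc
Kpna2 held a CHR match on the minus strand 35 bases before the start, 10 bases before a CCAAT box. Nup37 held an ETS core 83 bases before the start shown, a pair of CHR matches at 69 and 47 bases, and a CCAAT box at 20 bases. Nup37 has a second annotated start, from which the same CHR matches lay at 148 and 126 bases and the CCAAT box at 99 bases. In Kpnb1 CCAAT occurred 3 times, at 195, 155 and 122 bases, with none of the other motifs. In Nup107 an NRF1 core matched on both strands of one overlapping palindrome at 65 and 62 bases, next to an E2F core at 52 bases.

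A promoter was held for 31 of the 40 members, and here the window ran from 250 bases before to 50 after the start. The NRF1 core, bound by a factor that is known for nuclear genes of mitochondria, was in 7 of the 31 (22.6%), Nup107, Nup133, Nup188, Nup50, Nup62, Xpo5 and Xpot. It was in 4.41% of the 27025 genes with a promoter and in 8.19% of the 9172 of these that were tested for expression. An E-box was in 6 (19.4%), against 8.09% of all genes and 11.9% of those tested, and a CCAAT box in 17 (54.8%), against 41.1% and 43.3%. For the other motifs the order depended on the background. The CHR was in 5 (16.1%), against 20.2% of all genes and 14.4% of those tested. The ETS core was in 5 (16.1%), against 9.93% and 21.0%, and the E2F core in 3 (9.68%), against 5.29% and 10.0%. The 3 with an E2F core were Nup107, Nup133 and Nup210. The 31 members include Nup210 and Nup62cl, which were not tested for expression, so they are not quite the same kind of set as the tested genes. A match is a description of the letters in this window, and binding was not measured.

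Of the 37 members tested, 30 rose in cultured MSCs (81.1%), none fell and 7 did not pass the test. Over all genes tested, 48.1% rose and 17.6% fell. No tested member had a fold change below 0 in limma, so none was lower at an unadjusted p under 0.05 either. The median log2 fold change of the members was 0.97, against 0.45 over all genes tested, and 29 of the 37 lay above that median. In 31 members all 4 cultured libraries were higher than both primary libraries, which 52.3% of all genes tested also showed. In none of the 37 were all cultured libraries lower, against 20.4% of all genes tested. These are counts of a chosen list, and how far it stands apart from other genes was not tested.

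The shift of the median gene bears on the direction. With median ratio scaling, which moves the median of all genes from 0.45 to 0.02, 22 members rose and 1, Nup85, fell, against 29.3% and 28.6% of all genes tested. With quantile normalization 27 members rose and none fell, against 32.1% and 26.6% of all genes. The rise was past the test under all 17 alternatives for 22 members, among them Kpna2, Nup43, Nup37, Xpot, Xpo1, Ipo5 and Kpnb1. The annotated spans of 6 tested members, Nup43, Nup62, Nup98, Nup88, Nup214 and Xpo7, overlap another gene of the table, and the library kit does not mark strand.

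**Figure D1:**
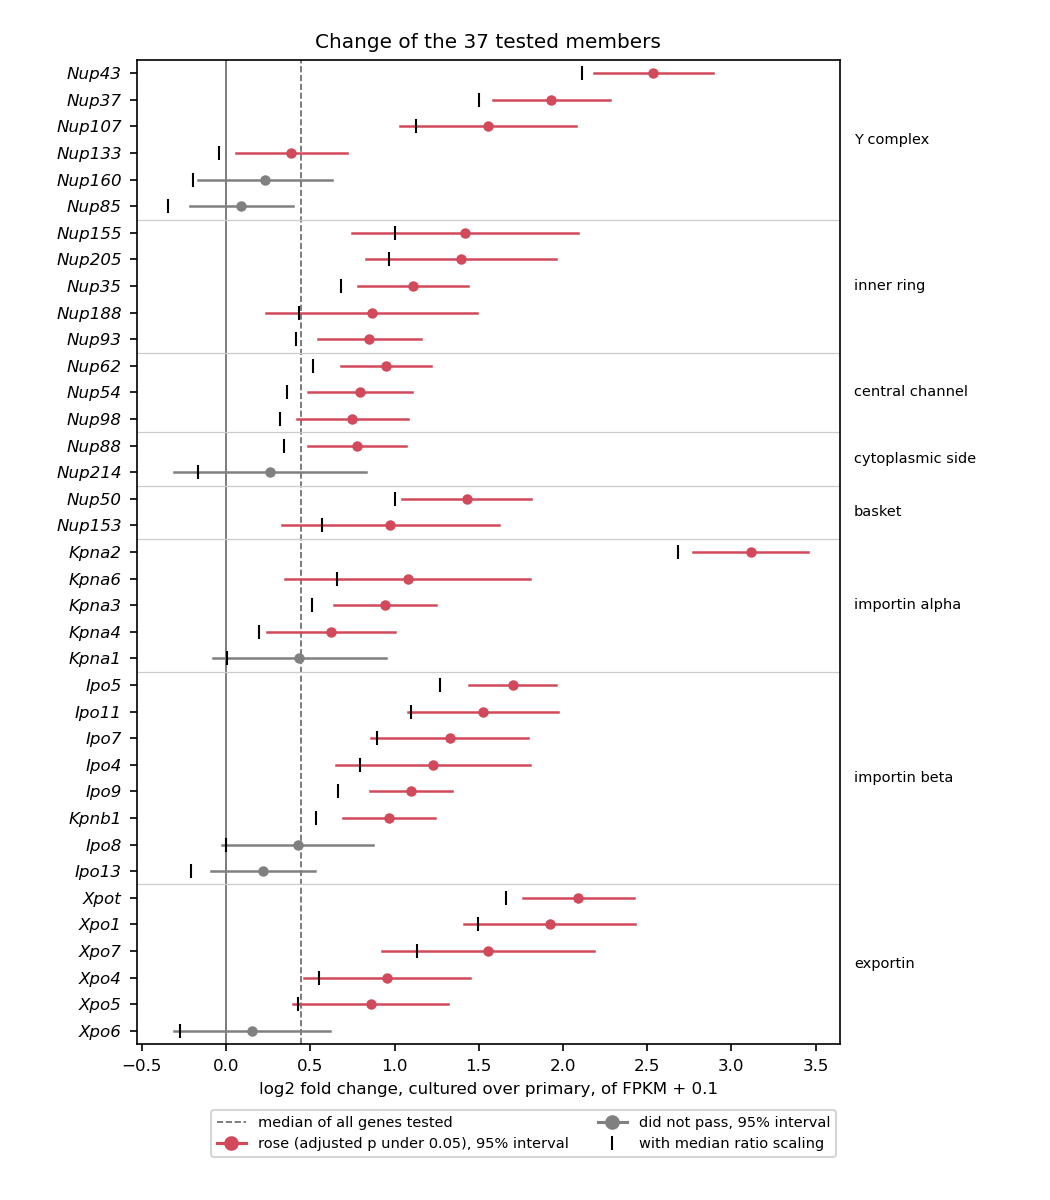
The plot shows the log2 fold change of FPKM + 0.1, cultured over primary MSCs, of each of the 37 tested members on the horizontal axis, with its 95% interval, grouped by role. Red symbols rose and grey symbols did not pass, the dashed line is the median of all genes tested (0.45), and black ticks give the value with median ratio scaling, under which Nup85 lies at -0.34 and Kpna2 at 2.68.

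Rises were spread over both classes. Of 18 pore proteins, 15 rose (83.3%), with a median log2 fold change of 0.91. Of 19 importins and exportins 15 rose (78.9%), with a median of 1.08, while 48.1% of all genes tested rose. Summed over the members, the pore proteins had 160 ± 19.0 FPKM (SD, n = 2) in primary MSCs and 296 ± 18.7 (SD, n = 4) in cultured MSCs. The sum of the importins and exportins went from 154 ± 11.7 to 465 ± 16.0 FPKM, and Kpna2 alone made up 182 of the latter. The difference between the classes was not tested. The study's thresholds ask for a log2 fold change of 2 or more in size with an adjusted p of 0.01 or less. They were applied here to the limma fit, while the study called genes with DESeq2, so the calls can differ. In the limma fit only Kpna2, Nup43 and Xpot were called, all as higher, against 8.36% higher and 5.95% lower of all genes tested. Xpot was under a log2 fold change of 2 with a pseudocount of 1, quantile normalization, TPM or median ratio scaling. Without primary library 1 it was at 1.97.

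**Figure D2:**
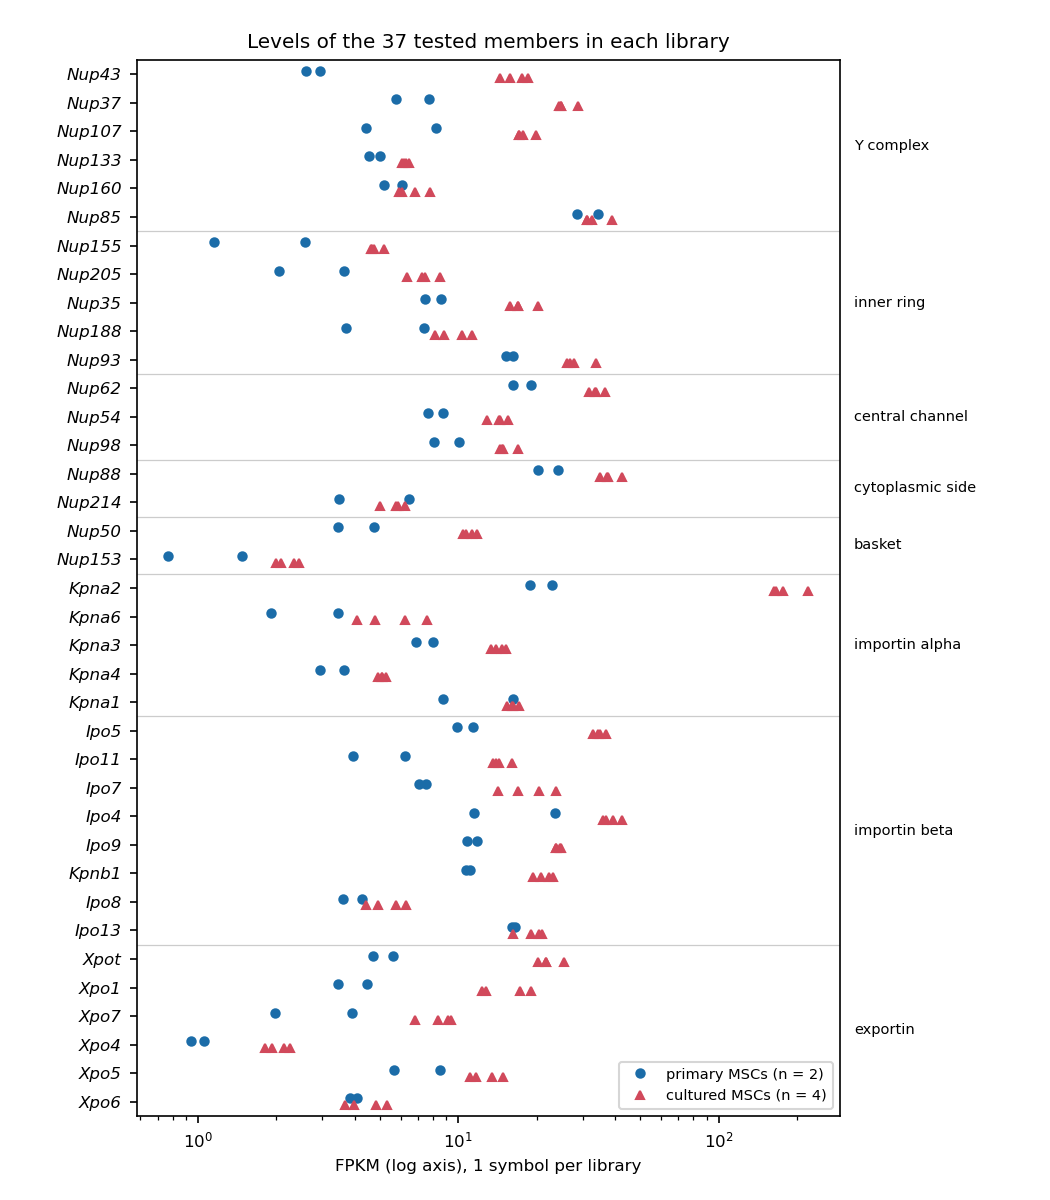
The plot gives FPKM on a log axis for each of the 37 tested members, with 1 symbol per library, circles for the 2 primary and triangles for the 4 cultured libraries. The groups separate for Kpna2, Nup43 and Xpot, and they overlap for Nup85, Nup160, Nup214, Kpna1, Ipo13 and Xpo6.

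The Y complex, the outer ring scaffold, did not move as 1 block. Of its 6 members 4 rose, against 48.1% of all genes tested, and fold changes ran from 0.09 for Nup85 to 2.54 for Nup43. Nup43 (chr10:7667504-7678886), a small subunit with a WD repeat propeller at the short arm of the Y, had 2.94 and 2.59 FPKM in the primary libraries and 18.5, 14.4, 17.6 and 15.8 in cultured libraries 1 to 4. Its mean was 2.77 ± 0.247 FPKM (SD, n = 2) in primary and 16.6 ± 1.82 (SD, n = 4) in cultured MSCs, and the log2 fold change was 2.54 (SE 0.15, adjusted p = 5.24e-06 from limma). Every cultured library was far above both primary libraries. The span of Nup43 lies wholly within that of Pcmt1, a protein repair methyltransferase gene with 45.9 FPKM in primary and 65.3 in cultured MSCs, so reads from shared sequence cannot be assigned to either gene by strand.

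Nup85 (chr11:115564432-115583924), which sits in the short arm of the same complex, had 28.7 and 34.3 FPKM in the primary and 38.8, 31.3, 32.7 and 31.3 in the cultured libraries. The groups overlapped, and the log2 fold change of 0.09 (SE 0.13) had a 95% interval from -0.21 to 0.40 (adjusted p = 0.564 from limma). Without primary library 1 it was -0.037, and with median ratio scaling -0.34 (adjusted p = 0.0497). Nup160, another scaffold subunit, had 6.07 and 5.19 FPKM in the primary and 6.05, 7.80, 5.92 and 6.83 in the cultured libraries. These groups overlapped too, with a log2 fold change of 0.23 (95% interval -0.17 to 0.63, adjusted p = 0.265 from limma).

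Nup37 and Nup107 rose and are given here because their values, once seen, set the pattern of the complex. Nup37, a WD repeat subunit that docks on Nup160, had 6.73 ± 1.35 FPKM (SD, n = 2) in primary and 25.7 ± 2.12 (SD, n = 4) in cultured MSCs, and the log2 fold change was 1.93 (SE 0.15, adjusted p = 1.79e-05 from limma). Nup107, a subunit of the stem of the Y, had 4.42 and 8.19 FPKM in the primary libraries and between 17.1 and 19.8 in the cultured libraries, a log2 fold change of 1.56 (SE 0.23, adjusted p = 0.000508 from limma). Its partner in the stem, Nup133, changed by 0.39 (SE 0.14, adjusted p = 0.0423 from limma), a call that was lost under 10 of the 17 alternatives, among them each library left out in turn except primary library 2. The ratio of Nup107 to Nup133 was 0.976 and 1.64 in the primary and between 2.73 and 3.20 in the cultured libraries.

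Each subunit was also set against Nup85 in the same library. The ratio of Nup43 to Nup85 was 0.0891 ± 0.0191 (SD, n = 2) in primary and 0.495 ± 0.0336 (SD, n = 4) in cultured MSCs. For Nup37 it went from 0.218 ± 0.0703 to 0.769 ± 0.0264, and for Nup107 from 0.197 ± 0.0600 to 0.536 ± 0.0247. For Nup133 it was 0.152 ± 0.00853 and 0.188 ± 0.0201, and for Nup160 0.182 ± 0.0426 and 0.201 ± 0.0410, the last with overlapping groups. Such a ratio is not touched by a scaling factor for the library. The highest of the 6 transcripts was 9.75 and 13.2 times the lowest in the primary libraries and between 4.83 and 6.41 times in the cultured libraries. This narrower spread holds for these 6 transcripts only. Sec13, a Y complex subunit outside the rule, was above all 6, at 145 and 169 FPKM in the primary libraries. In cultured libraries 1 to 4 it had 367, 296, 320 and 312 FPKM.

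**Figure D3:**
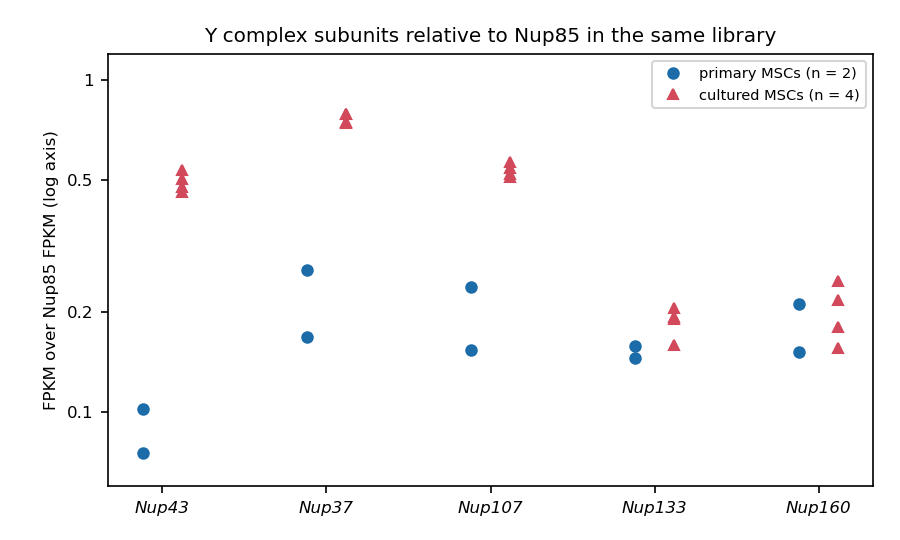
The plot gives the FPKM of 5 Y complex subunits divided by the FPKM of Nup85 in the same library, on a log axis, with 1 symbol per library. For Nup43, Nup37 and Nup107 all 4 cultured libraries (triangles) lie above both primary libraries (circles), while for Nup160 the groups overlap.

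All 5 members of the inner ring, which anchors the pore to the membrane and to the central channel, rose, against 48.1% of all genes tested. The median log2 fold change of the 5 was 1.11. With all libraries the largest was that of Nup155, which links the ring to the nuclear membrane. It had 1.15 and 2.58 FPKM in the primary and 4.66, 5.19, 4.60 and 4.74 in the cultured libraries, with 1.42 on the log2 scale (SE 0.29, adjusted p = 0.00306 from limma). Without primary library 1 it was 0.87, below Nup205 (0.99) and Nup35 (1.01). The smallest was that of Nup93, the scaffold on which the other ring subunits assemble, with 15.2 and 16.3 FPKM in the primary and 33.7, 26.1, 26.8 and 27.8 in the cultured libraries (0.85, SE 0.13, adjusted p = 0.000717). In each of the 5 all cultured libraries were above both primary libraries, as in 52.3% of all genes tested. Nup205 (1.39) and Nup35 (1.11) lay in between, and Nup188, a paralog of Nup205, rose by 0.86 (SE 0.27, adjusted p = 0.0224), a call that was lost under 8 of the 17 alternatives, among them median ratio scaling (adjusted p = 0.1996) and leaving out primary library 1 (0.38, adjusted p = 0.131).

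The 3 FG nucleoporins of the central channel rose by similar amounts, with log2 fold changes from 0.75 to 0.95. Nup62, the main FG protein of the channel, had 16.2 and 19.0 FPKM in the primary and 36.6, 33.8, 33.6 and 31.6 in the cultured libraries (0.95, SE 0.12, adjusted p = 0.00019 from limma). Nup98 had 8.08 and 10.1 FPKM in the primary and 17.0, 14.9, 14.4 and 14.8 in the cultured libraries (0.75, SE 0.14, adjusted p = 0.00201, and 0.0797 with median ratio scaling). The Nup98 gene also encodes Nup96, a Y complex subunit cleaved from the same precursor, so its value covers both. The ratio of Nup62 to its channel partner Nup54 was 2.14 ± 0.0378 in primary and 2.38 ± 0.252 in cultured MSCs, with overlapping groups. Nup62 overlaps Atf5, a stress response transcription factor gene at 16.4 and 29.8 FPKM on average, over 571 bases.

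The partners Nup88 and Nup214 on the cytoplasmic side differed in their calls. Nup88, which holds Nup214 at the pore, had 20.2 and 24.2 FPKM in the primary and 42.6, 37.3, 37.6 and 34.9 in the cultured libraries, and rose by 0.78 (SE 0.13, adjusted p = 0.000851 from limma). Nup214, an FG protein that binds Xpo1, had 3.48 and 6.44 FPKM in the primary and 4.99, 5.76, 5.87 and 6.26 in the cultured libraries. Primary library 2 was above all cultured libraries and primary library 1 below them, and the log2 fold change of 0.26 had an interval from -0.31 to 0.83 (adjusted p = 0.376). It was -0.17 without primary library 1 and 0.70 without primary library 2, where it passed (adjusted p = 0.010). Whether the fold changes of Nup88 and Nup214 differ was not tested.

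Both members of the nuclear basket rose, as did 48.1% of all genes tested. Nup50, which helps to release cargo from importin alpha, had 4.74 and 3.44 FPKM in the primary and 11.8, 11.3, 10.4 and 10.7 in the cultured libraries (1.43, SE 0.17, adjusted p = 0.000144 from limma). Nup153, which binds the inner face of the pore, had 0.77 and 1.48 FPKM in the primary and 2.33, 2.00, 2.08 and 2.44 in the cultured libraries (0.98, SE 0.28, adjusted p = 0.0149). Its groups were separate but its call was lost with median ratio scaling (adjusted p = 0.110) and without primary library 1 (0.55, adjusted p = 0.0628).

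The 3 members that were not tested were at low levels. Nup210, a membrane protein of the pore whose amount differs between cell types, was listed at 0 in all cultured libraries and at 0.02 and 0.11 FPKM in the primary libraries. Nup210l, its paralog, had between 0.05 and 0.15 FPKM in the cultured and 0.23 and 0.26 in the primary libraries. Nup62cl, a gene related to Nup62, had between 0.33 and 0.73 FPKM in the cultured and 1.16 and 0.12 in the primary libraries.

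Importin alphas are the adaptors that recognise a classical nuclear localisation signal and join the cargo to importin beta 1. Of 5 members 4 rose, against 48.1% of all genes tested. Kpna2 (chr11:106988629-106999525) rose more than any other member. It had 22.9 and 18.8 FPKM in the primary and 220, 177, 166 and 164 in cultured libraries 1 to 4. From 20.8 ± 2.93 (SD, n = 2) to 182 ± 26.4 FPKM (SD, n = 4), its mean was 8.72 times higher in cultured MSCs, with a log2 fold change of 3.12 (SE 0.15, adjusted p = 1.62e-06 from limma), which stayed between 2.68 and 3.26 over all alternatives. Kpna2 went from the 3rd highest of the 37 tested members in primary to the highest in cultured MSCs. A pseudogene, Kpna2-ps, is annotated on chromosome 17 and is not a row of the table, so reads could be shared with it.

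The other importin alphas rose by less or did not pass. Kpna3 had 6.85 and 7.97 FPKM in the primary and 13.4, 13.9, 15.2 and 14.7 in the cultured libraries (0.94, SE 0.13, adjusted p = 0.000383 from limma). Kpna4, of the same subfamily as Kpna3, had 2.95 and 3.64 FPKM in the primary and 5.09, 5.29, 4.91 and 5.11 in the cultured libraries (0.62, SE 0.16, adjusted p = 0.0103, and not under 0.05 with quantile normalization or median ratio scaling). Both had separate groups. Kpna6 had 1.90 and 3.45 FPKM in the primary and 4.09, 4.78, 6.26 and 7.60 in the cultured libraries (1.08, SE 0.31, adjusted p = 0.0163). Its call was lost under 4 of the 17 alternatives, among them median ratio scaling (adjusted p = 0.107), array weights and leaving out primary library 1 (0.66, adjusted p = 0.105). Kpna1, of the subfamily of Kpna6, had 16.2 and 8.75 FPKM in the primary and 17.1, 15.4, 16.2 and 16.0 in the cultured libraries. Here primary library 1 was level with the cultured libraries, and the log2 fold change of 0.43 (95% interval -0.08 to 0.95, adjusted p = 0.118) was -0.0077 without primary library 2 and 0.88 without primary library 1, where it passed (adjusted p = 0.000621).

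The makeup of the importin alpha pool differed accordingly. Kpna2 held 45.1% and 44.1% of the summed importin alpha FPKM in the primary libraries and 84.7%, 81.8%, 79.6% and 79.0% in the cultured libraries. The share of Kpna1 was 31.9% and 20.5% in the primary and 7.29% ± 0.564 (SD, n = 4) in the cultured libraries. Kpna3 held 16.1% ± 3.71 (SD, n = 2) and 6.50% ± 0.975, Kpna4 7.18% ± 1.94 and 2.31% ± 0.237, and Kpna6 5.92% ± 3.09 and 2.61% ± 0.915. The summed level was 46.7 ± 5.85 FPKM in primary and 223 ± 25.0 in cultured MSCs, so the lower shares of the other adaptors went with levels that were not lower on average.

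**Figure D4:**
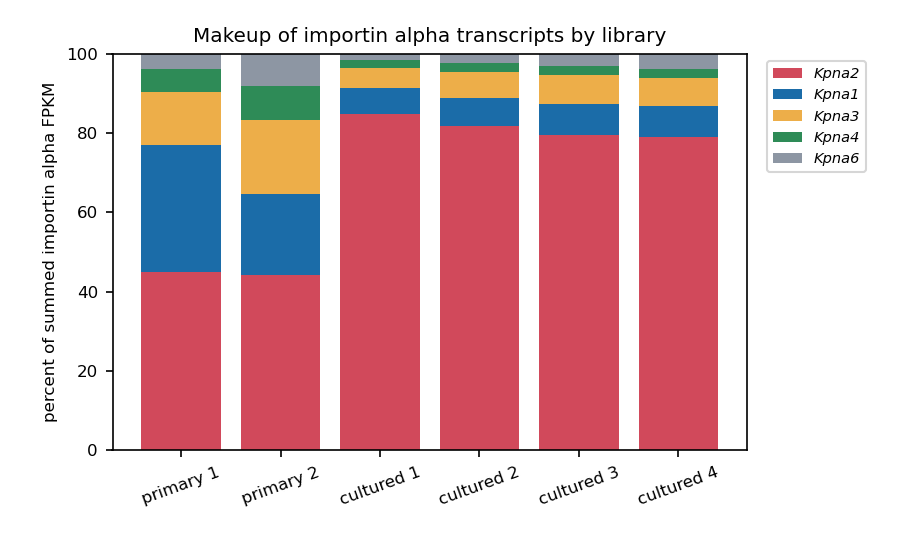
The bars give the percent of the summed importin alpha FPKM held by each of the 5 genes, in each of the 6 libraries. Kpna2 (red) takes 45.1% and 44.1% in the primary libraries and between 79.0% and 84.7% in the cultured libraries.

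Kpnb1 encodes importin beta 1, the carrier that binds importin alpha with its cargo. It had 10.7 and 11.0 FPKM in the primary and 22.2, 19.4, 20.8 and 23.0 in the cultured libraries, and rose by 0.97 (SE 0.12, adjusted p = 0.000196 from limma). The ratio of Kpna2 to Kpnb1 was 2.15 and 1.70 in the primary libraries and 9.91, 9.13, 7.98 and 7.12 in the cultured libraries. Cse1l, outside the rule, encodes the exportin that returns importin alpha to the cytoplasm. It had 9.44 and 13.4 FPKM in the primary and 40.7, 34.7, 33.6 and 35.0 in the cultured libraries (1.66, SE 0.16, adjusted p = 5.39e-05). The ratio of Kpna2 to Cse1l was 1.91 ± 0.727 in primary and 5.04 ± 0.307 in cultured MSCs, with separate groups.

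Of the 8 importins of the beta family, Kpnb1 included, 6 rose, against 48.1% of all genes tested. The median log2 fold change of the 8 was 1.16. Ipo5, an importer of ribosomal proteins and histones, had 9.92 and 11.4 FPKM in the primary and 33.0, 34.9, 34.5 and 37.0 in the cultured libraries, with separate groups (1.70, SE 0.11, adjusted p = 7.84e-06 from limma). Ipo11, Ipo7, Ipo4 and Ipo9 rose by 1.52, 1.33, 1.23 and 1.10. Ipo4 had 11.5 and 23.5 FPKM in the primary libraries, and its log2 fold change was 0.71 without primary library 1 (adjusted p = 0.002) and 1.74 without primary library 2. Ipo7 and Ipo9 are known to import ribosomal proteins or histones, and Ipo4 histones.

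The remaining importins, Ipo8 and Ipo13, did not pass. Ipo8, the closest paralog of Ipo7, had 3.61 and 4.25 FPKM in the primary and 4.41, 4.91, 5.76 and 6.28 in the cultured libraries. Its groups did not overlap, but the log2 fold change of 0.42 had an interval from -0.03 to 0.87 (adjusted p = 0.0867 from limma). Ipo13, which carries some cargoes in and others out, had 16.6 and 16.1 FPKM in the primary and 16.2, 20.9, 19.0 and 20.3 in the cultured libraries. Cultured library 1 lay between the primary libraries, and the log2 fold change was 0.22 (95% interval -0.09 to 0.53, adjusted p = 0.178).

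Of the 6 exportins 5 rose, against 48.1% of all genes tested. The median log2 fold change of the 6 was 1.26. Xpot (chr10:121587380-121626506), the exporter of tRNA, had 4.70 and 5.62 FPKM in the primary and 20.2, 21.8, 21.8 and 25.5 in the cultured libraries (2.09, SE 0.14, adjusted p = 9.57e-06 from limma). Xpo1 (chr11:23255909-23297597), which exports proteins with a leucine-rich export signal as well as ribosomal subunits, had 3.44 and 4.46 FPKM in the primary and 12.4, 12.8, 19.1 and 17.3 in the cultured libraries (1.92, SE 0.22, adjusted p = 0.000131). For both genes every cultured library was above both primary libraries.

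Xpo7, a carrier of many proteins, Xpo4, which exports a translation factor, and Xpo5, the exporter of microRNA precursors, rose by 1.55, 0.96 and 0.86. The calls of Xpo4 and Xpo5 were lost with median ratio scaling (adjusted p = 0.0531 and 0.0951), and without primary library 1 the log2 fold change of Xpo5 was 0.57. Xpo7 overlaps Dok2, a signalling adaptor gene of blood cells at 0.01 and 0.678 FPKM on average, over 4976 bases. Xpo6, which exports actin with profilin, had 3.82 and 4.07 FPKM in the primary and 5.33, 4.82, 3.66 and 3.96 in the cultured libraries. Its groups overlapped, and the log2 fold change was 0.15 (95% interval -0.31 to 0.62, adjusted p = 0.523 from limma). The ratio of Xpo1 to Xpo6 was 0.901 and 1.10 in the primary and between 2.32 and 5.21 in the cultured libraries.

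A list of 31 other pore and transport genes, all tested, gives the rest of the pathway. Of these 21 rose (67.7%), 1 fell and 9 did not pass, with a median log2 fold change of 0.77. Among all genes tested, 48.1% rose and 17.6% fell, with a median of 0.45. With median ratio scaling and with quantile normalization 16 of the 31 rose, against 29.3% and 32.1% of all genes tested. Without rescaling, 8 of 12 further pore genes rose (66.7%). The 4 that did not pass were Ranbp2, Ahctf1, Pom121 and Gle1, with log2 fold changes of 0.79, 0.40, 0.14 and 0.12. Ndc1, a membrane anchor of the pore, had 5.24 and 7.05 FPKM in the primary and 32.3, 25.2, 32.7 and 29.7 in the cultured libraries (2.28, SE 0.17, adjusted p = 1.3e-05 from limma). Nupl2, on the cytoplasmic side, had 1.82 and 2.27 FPKM in the primary and 8.65, 7.94, 7.90 and 7.85 in the cultured libraries (1.94, SE 0.16). Seh1l, a Y complex subunit that sits beside Nup85, rose by 1.76, and Sec13, another, by 1.04. Both are outside the rule and were picked here as partners of the Y complex members, after their values were seen.

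In the Ran cycle 6 of 7 genes rose (85.7%, against 48.1% of all genes tested), with a median of 1.34. Ran had 76.3 and 82.2 FPKM in the primary and 328, 293, 300.1 and 291 in the cultured libraries (1.93, SE 0.09, adjusted p = 1.67e-06 from limma). Rangap1, which triggers the GTPase of Ran in the cytoplasm, had 12.5 and 14.5 FPKM in the primary and 44.8, 43.5, 47.0 and 48.5 in the cultured libraries (1.77, SE 0.11). Their groups did not overlap. Rangrf, a Ran binding factor, had 23.3 and 33.9 FPKM in the primary and 28.7, 19.4, 20.7 and 19.8 in the cultured libraries and did not pass (-0.36, 95% interval -0.84 to 0.11, adjusted p = 0.155), but was called lower with median ratio scaling (-0.80, adjusted p = 0.0105), with quantile normalization, and without primary library 1 (-0.63) or cultured library 1.

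Genes of mRNA export, which uses the same pore but neither importins nor Ran, had the lowest median of the 4 groups, 0.32. Of 8 such genes 3 rose (37.5%) and 1 fell. These values were near those of all genes tested, of which 48.1% rose and 17.6% fell, with a median of 0.45. Nxf1, the main mRNA export receptor, had 57.0 and 54.0 FPKM in the primary and 41.6, 36.1, 40.5 and 40.7 in the cultured libraries (-0.48, SE 0.10, adjusted p = 0.00336 from limma). It was lower in every cultured library, against Xpo1 and Xpot, which were higher in each. The difference between the groups of genes was not tested.

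**Figure D5:**
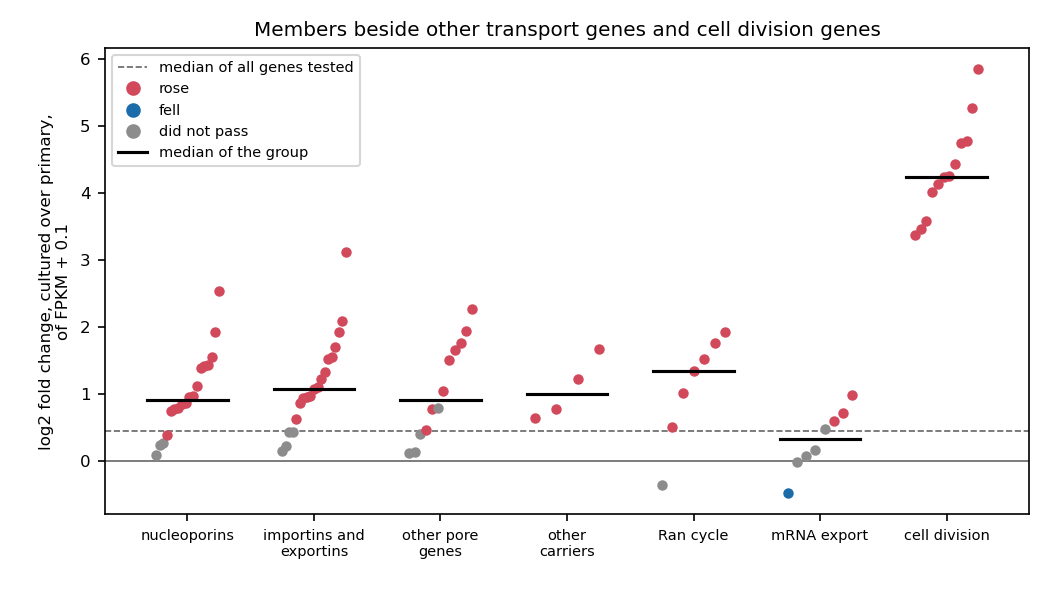
The plot gives the log2 fold change of FPKM + 0.1, cultured over primary MSCs, for each tested gene of 7 groups, with the median of each group as a bar and the median of all genes tested (0.45) as a dashed line. Medians lie at 0.91 for the nucleoporins, 1.08 for the importins and exportins, 0.32 for mRNA export and 4.24 for the cell division genes.

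Cell division genes were also higher in cultured MSCs. All 12 of a list of mitotic genes, such as Mki67 and Ccnb1, rose, by 3.37 to 5.85 on the log2 scale. Over all genes tested 48.1% rose, and the median log2 fold change was 0.45. The summed level of the 12 was 14.2 ± 0.156 FPKM in primary and 352 ± 25.9 in cultured MSCs. Within the cultured libraries this sum was highest in library 1, at 390, and between 337 and 341 in the others, and Kpna2 was highest in library 1 as well. This match is not particular to Kpna2. Library 1 had the highest FPKM sum of the cultured libraries, 642497. It was the highest of them for 15 of the 37 tested members, as library 4 was for 15. Only Kpna2 among the members had a log2 fold change close to the lowest of that list. The part of cell division in the members' values was not tested.

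Markers of stromal and of other cell types also differed between the groups, where 48.1% of all genes tested rose and 17.6% fell. Of the 9 MSC and stromal genes listed, all tested, 6 fell and 1 rose. The largest fall among them was that of Dcn, from 20279 to 1083 FPKM on average, and Prrx1 rose from 39.3 to 72.7. In the list of macrophage and monocyte genes 13 of the 14 tested rose, none fell and Cd14 did not pass. The summed level of the 15 listed was 34.5 and 34.8 FPKM in the primary and 285, 356, 110 and 285 in the cultured libraries. Lyz2 alone made up 11.8 and 18.1 FPKM of the primary sums and 180, 221, 60.6 and 175 of the cultured sums. Ptprc, which encodes the CD45 of the gate, had 0 and 0.02 FPKM in the primary libraries and 0.34, 0.47, 0.12 and 0.25 in the cultured ones. All 4 tested erythroid genes fell, with summed levels of 239 and 150 FPKM in the primary libraries and at most 0.610 in the cultured libraries. Cultured library 3 had the lowest macrophage sum. The part of other cell types in the members' values was not tested.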

How the data were processed

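RNA from 6 samples was amplified with the SMART-Seq v4 kit, which reads full-length transcripts without marking strand. According to the submitters' processing notes and the methods, the authors cleaned reads with SOAPnuke, mapped them to the GRCm38.p6 genome (HISAT2 2.0.4) and transcripts (Bowtie2 2.2.5), and estimated expression with RSEM 1.2.8. The deposited table holds FPKM values with 2 decimals, which the authors computed, and 1 column of log2 fold changes that the authors computed with DESeq2, which was not used. It has no counts, so no count test could be run, and 0 columns of per-sample values were left out.

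Groups were taken from the labels. FPKM + 0.1 was log2 transformed and compared with limma 3.58.1 in R 4.3.3 (2 groups, moderated variances with a trend), after a filter of 1 FPKM in 2 or more libraries, with Benjamini-Hochberg adjustment over 11405 genes. The fit had 4 residual degrees of freedom. For 4 against 2 libraries the smallest p of an exact permutation test is 0.0667. The fit was tested on simulated data. Coordinates and promoters came from RefSeq tables of GRCm38.p6, in which all 40 members were found by gene ID. Proteins were not used here. Overlaps with other genes are of annotated spans, and the table gives no strand.

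The members and the gene lists were chosen with earlier results of these data known, and the lists were written from general knowledge. Values in every library are given for the highest and lowest fold change of each role, members that did not pass or were past 2 on the log2 scale, all importin alphas, Kpnb1 and Xpo1. Of the other transport genes they are given for the 4 highest, the 2 lowest, Cse1l and Ran. The 17 alternatives changed the pseudocount (0.01 or 1), the filter (none, or a mean of 1 FPKM), the scaling (quantile, TPM or median ratio) or the limma options (no trend, robust moderation, array weights by group, replicate numbers as a block), or left out 1 of the 6 libraries. A lone primary library was assumed to vary as much as cultured ones. Figures were drawn with matplotlib 3.10.9, and tables with pandas 2.3.3 and numpy 2.4.6, in Python 3.11.15.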

Additional observations from a re-analysis of the deposited data

Results flagged for a closer look

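Nup37 had 1 library far from the others. Cultured library 1 was at 28.92 FPKM, and the other 3 cultured libraries lay between 24.45 and 24.81. The gap to the nearest library was 0.919 of the whole range of the group, above Dixon's 95% critical value for 4 samples. Of the 37 tested members 1 was marked in this way, while chance marks about 1 in 20 groups. All 4 cultured libraries were above both primary libraries, at 7.68 and 5.77 FPKM.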

How the results depend on the processing

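The rise of 22 of the 37 tested members passed the test under all 17 alternatives. Counts of risen members ran from 22 with median ratio scaling to 31 without primary library 2, and from 27 to 31 when each library was left out in turn (12 to 16 pore proteins, 15 importins and exportins throughout). They were 27 with quantile normalization, 28 with TPM and 27 with array weights, against 32.1%, 41.7% and 39.1% of all genes, and 27 and 31 without primary library 1 and 2, against 50.2% and 50.4%. No member fell, except Nup85 with median ratio scaling (1 member) and Nup210l with no filter (1 member, -0.85 on the log2 scale, at levels under 0.3 FPKM). Past the study's thresholds, 3 to 5 members were higher when a library was left out, 1 or 2 pore proteins and 1 to 4 importins and exportins. The latter were 1 with a pseudocount of 1, quantile normalization, TPM or median ratio scaling, since Xpot was then under a log2 fold change of 2.

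The median log2 fold change of all members, 0.97, was 0.87 with a pseudocount of 1, 0.70 with quantile normalization, 0.85 with TPM, 0.55 with median ratio scaling and 0.83 to 1.16 with a library left out. That of the pore proteins, 0.91, was 0.79, 0.53, 0.77 and 0.48 under these settings and 0.75 to 1.13 with a library left out. That of the importins and exportins, 1.08, was 0.91, 0.74, 0.95 and 0.66, and 0.88 to 1.16 with a library left out. Relative to the median of all genes, the members' median was 0.69 with no filter, 0.61 with quantile normalization and 0.36 to 0.67 with a library left out. For the pore proteins it was 0.63 with no filter and 0.27 to 0.64 with a library left out, and for the importins and exportins 0.54 with a pseudocount of 1, 0.81 with no filter and 0.41 to 0.67 with a library left out. Of the other transport genes 2 fell, not 1, with quantile normalization, median ratio scaling, and without cultured library 1 or primary library 1. The range was 1 to 2 with a library left out.

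Members that changed sign were among those that did not pass, apart from Nup133. With median ratio scaling the values were -0.041 for Nup133, -0.20 for Nup160, -0.34 for Nup85, -0.16 for Nup214, -0.00075 for Ipo8, -0.21 for Ipo13 and -0.27 for Xpo6. With quantile normalization they were -0.10 for Nup160, -0.33 for Nup85, -0.060 for Nup214, -0.20 for Ipo13 and -0.15 for Xpo6, and Nup85 was at -0.049 with TPM. With a library left out, Nup85 ran from -0.037 to 0.22, Nup214 from -0.17 to 0.70 and Kpna1 from -0.0077 to 0.88, the lowest without primary library 1 for Nup85 and Nup214 and without primary library 2 for Kpna1. The cause of these changes was not tested, apart from the shift of the median of all genes that the scalings set. With the replicate number as a block 24 members rose and none fell, against 40.3% risen of all genes, and the importins and exportins had a median of 0.93, or 0.48 relative to all genes. The calls of Nup133, Nup188, Nup153, Kpna6, Kpna4 and Xpo4 were those lost. The groups share only the numbers 1 and 2, whose deviations correlated at 0.121 and 0.0519, so they were not taken as pairs. With the block, therefore, only libraries 1 and 2 of each group set the fold change. That fit also had fewer residual degrees of freedom than the 4 of the main fit, so a lost call can come from fewer libraries alone. The FPKM values carry no counts, so what depth limits is unknown, and primary MSCs have 2 libraries.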

Other observations

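The libraries of a group differed in which members they favoured. Primary library 1 was lower than primary library 2 for 30 of the 37 tested members, 14 of 18 pore proteins and 16 of 19 importins and exportins, and for 50.6% of all genes tested. The 7 others, higher in primary library 1, were Kpna2, Kpna1, Nup43, Nup37, Nup50, Nup160 and Ipo13. Among the cultured libraries, library 1 was highest for 11 of 18 pore proteins and 4 of 19 importins and exportins, and library 4 for 4 pore proteins and 11 importins and exportins. Replicates have no order, and these counts are of members that share their libraries.

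Members on chromosome 10 had high fold changes. The 4 tested there, Nup43, Nup37, Nup107 and Xpot, ran from 1.56 to 2.54 on the log2 scale, while the median of the 563 tested genes on that chromosome was 0.46. Chromosome 11 held 5 tested members from 0.09 (Nup85) to 3.12 (Kpna2), with a median of 0.37 over its 928 tested genes. These values were looked at after the members' fold changes were known, and no test was made of them.

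By level, Nup85 was the highest of the 37 tested members in primary MSCs and the 6th in cultured MSCs. Nup43 went from the 33rd to the 16th and Xpot from the 22nd to the 10th. Xpo4 was the lowest in both groups, at 0.995 ± 0.0778 FPKM (SD, n = 2) and 2.03 ± 0.197 (SD, n = 4).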
